A study of Mus musculus with 2 samples.

Results

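Foxp4 sites were examined at 125 genes of the extracellular matrix, the meshwork of secreted proteins that surrounds cells, and of the integrins that bind it. Members were the protein-coding genes of a RefSeq gene table whose symbols read Col, a number, a and a number, or start with Adamts, Adamtsl, Mmp, Lama, Lamb, Lamc, Itga or Itgb and a digit. Adamts5 was left out. They comprised 44 collagen genes, 23 Adamts and Adamtsl genes, 23 Mmp genes, 11 laminin genes and 24 genes of the integrin group, among 21887 protein-coding genes in all. The rule misses integrin chains named by a letter, such as Itgav, and takes in 3 genes of integrin-binding proteins (Itgb1bp1, Itgb1bp2 and Itgb3bp), none of which had a peak. Of the 3317 peaks of the series, 56 had a member as the nearest gene.

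Foxp4 is a forkhead transcription factor, and its sites were found by ChIP-seq, in which DNA fragments bound by the factor are pulled down with an antibody and read. C57BL/6 mice gave the cells, a stromal vascular fraction from inguinal white fat, which mixes fat progenitors and fibroblasts with other cells that are not adipocytes. Growth in 20% serum lasted 3 days. Induction toward beige fat cells followed for 48 h in 10% serum with 50 nM of the thyroid hormone T3, 5 µM troglitazone (a Pparg ligand), 1 µM of the glucocorticoid dexamethasone, 0.5 mM isobutylmethylxanthine (a phosphodiesterase inhibitor) and insulin at 5 µg/ml. The ChIP library and the input DNA library shared strain, cells and treatment, and neither was replicated, so that values carry no replicate error and conditions could not be compared. Intervals are exact 95% binomial (Clopper-Pearson) intervals and cover counting error over genes or peaks, and no test was run on any difference.

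Fat progenitors lay down a matrix rich in fibrillar collagens, and as they become adipocytes they surround themselves with a basement membrane of type IV collagen and laminin. Matrix metalloproteinases (Mmp) cleave collagens and other matrix proteins, Adamts proteases trim procollagens and cut proteoglycans, and integrins, pairs of an alpha and a beta chain, anchor cells to this matrix. A ChIP peak marks where DNA was recovered with the factor and not whether a nearby gene is expressed. Identity of the cells could therefore not be read from the peaks. Of the marker genes examined, the nearest gene of a peak was 4 of 8 for progenitors and fibroblasts (50%, interval 15.7 to 84.3), 0 of 6 for macrophages (0 to 45.9), 2 of 5 for endothelium (5.27 to 85.3) and 1 of 5 for adipocytes (0.505 to 71.6). The share of protein-coding genes outside the members was 8.99%, and the intervals are wide and overlap, so the counts do not order the cell types.

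Genes of the matrix had a Foxp4 peak more often than other protein-coding genes, by count. The members were chosen with earlier results of these data known, so the excess is a description and not independent support. At least 1 peak had the gene as its nearest for 35 of the 125 members (28.0%, interval 20.3 to 36.7), against 8.99% of the other 21761 protein-coding genes. A peak midpoint lay inside the body of 27 members (21.6%, 14.7 to 29.8), against 5.26% of other genes. Member bodies were longer, with a median of 51.5 kb against 17.1 kb, and this was not matched. The share was 43.5% for the Adamts and Adamtsl genes (10 of 23, interval 23.2 to 65.5), 36.4% for the laminins (4 of 11, 10.9 to 69.2) and 31.8% for the collagens (14 of 44, 18.6 to 47.6). It was 16.7% for the integrin group (4 of 24, 4.74 to 37.4) and 13% for the Mmp genes (3 of 23, 2.78 to 33.6), and these last intervals include the 8.99% of other genes. The intervals of the subfamilies overlap one another. The subfamilies also differ in gene size, for which these shares were not matched.

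**Figure D1:**
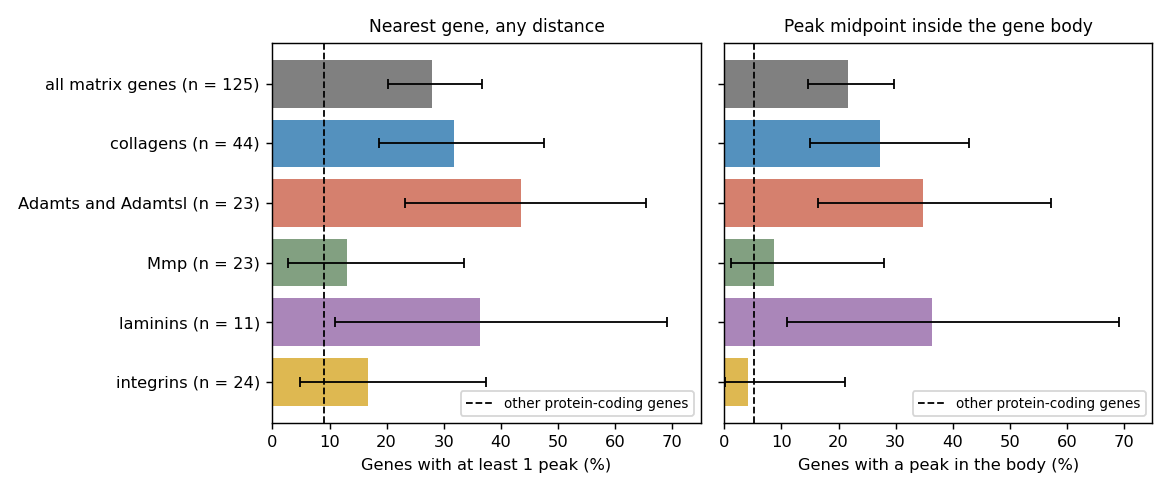
Percent of genes with at least 1 peak by nearest gene (left) and with a peak midpoint inside the gene body (right), for all 125 matrix genes and by subfamily. Bars are shares, whiskers exact 95% binomial intervals, and the dashed line is the share of other protein-coding genes (8.99% and 5.26%). The Adamts and Adamtsl bar reaches 43.5% on the left, and the Mmp and integrin whiskers cross the dashed line in both panels.

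Matrix genes are long and often stand apart from their neighbours, and the share of genes with a peak rose with the room around a gene among other genes too. The members' median body was 51.5 kb and the median territory, the body extended on each side to midway between it and the next gene, 105 kb, against 17.1 kb and 42.5 kb for other genes. In the quartile of largest territories, over 103 kb, 23 of 63 members had a peak (36.5%, 24.7 to 49.6), against 19% of the other genes there. In the third quartile 8 of 29 members had one (27.6%, 12.7 to 47.2), against 8.92%. In the second the count was 4 of 24 (16.7%, 4.74 to 37.4), against 4.82%, and in the first it was 0 of 9, which allows up to 33.6%, against 3.25%. If members had had peaks at the rate of other genes of the same decile of territory, 16.4 of them would have had one, where 35 did. This match is approximate, since territory follows gene bodies and peaks were named by the nearest start site. Members with a peak had a median territory of 180 kb and those without one of 67.7 kb. The median territory was 205 kb for Adamts and Adamtsl genes, 157 kb for collagens and 105 kb for laminins. It was 85.4 kb for the integrin group and 39.7 kb for Mmp genes. The 19% of other genes over 103 kb lies inside the interval of each subfamily except Adamts and Adamtsl (23.2 to 65.5). Whether the subfamilies differ beyond territory was not tested.

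**Figure D2:**
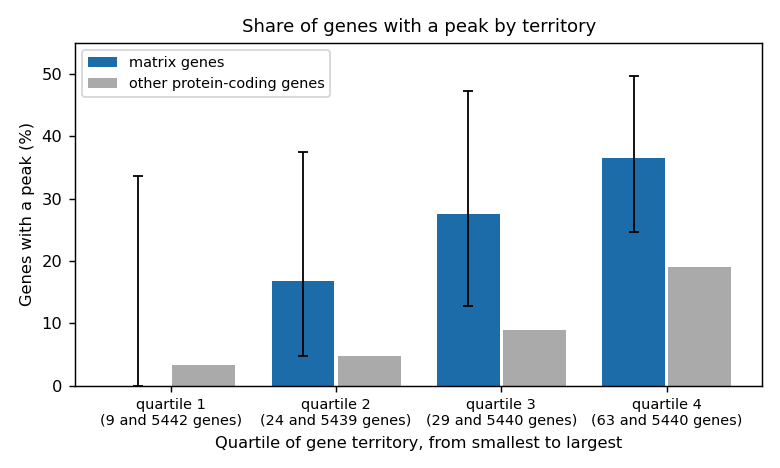
Percent of genes with a peak by nearest gene in 4 quartiles of gene territory, for matrix genes (blue) and other protein-coding genes (grey), with the numbers of each below. Whiskers are exact 95% binomial intervals of the matrix genes. Both shares rise with territory, to 36.5% and 19% in the last quartile.

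More than 1 peak was found at 13 members (10.4% of 125, 5.65 to 17.1), against 1.87% of other genes. Among genes with any peak, 37.1% of the members and 20.7% of the others had more than 1. Among these, 9 members had 2 peaks, Adamts2 and Adamts15 had 3 and Col3a1 had 6. The shares with more than 1 peak were not matched for territory, which was larger for members.

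Peak strength at members was close to that at other genes. Each peak carries a whole-number score from the authors' processing, whose definition the sources used here leave out, and the file holds no other value of strength. The median score of the 56 member peaks was 66 (exact interval of the median 42 to 82, quartiles 37 and 99), against 65 for the 2566 peaks at other protein-coding genes (quartiles 41 and 103). Scores of at least 100 were reached by 14 member peaks (25%, 14.4 to 38.4) and by 26.8% of the others. By gene, 11 members had such a peak (8.80%, 4.48 to 15.2), against 2.89% of other genes, with no match for territory. Collagen peaks had a median score of 78.5 (24 peaks), laminin peaks 80.5 (8), Mmp peaks 60 (4), integrin peaks 41 (5) and Adamts and Adamtsl peaks 38 (15).

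**Figure D3:**
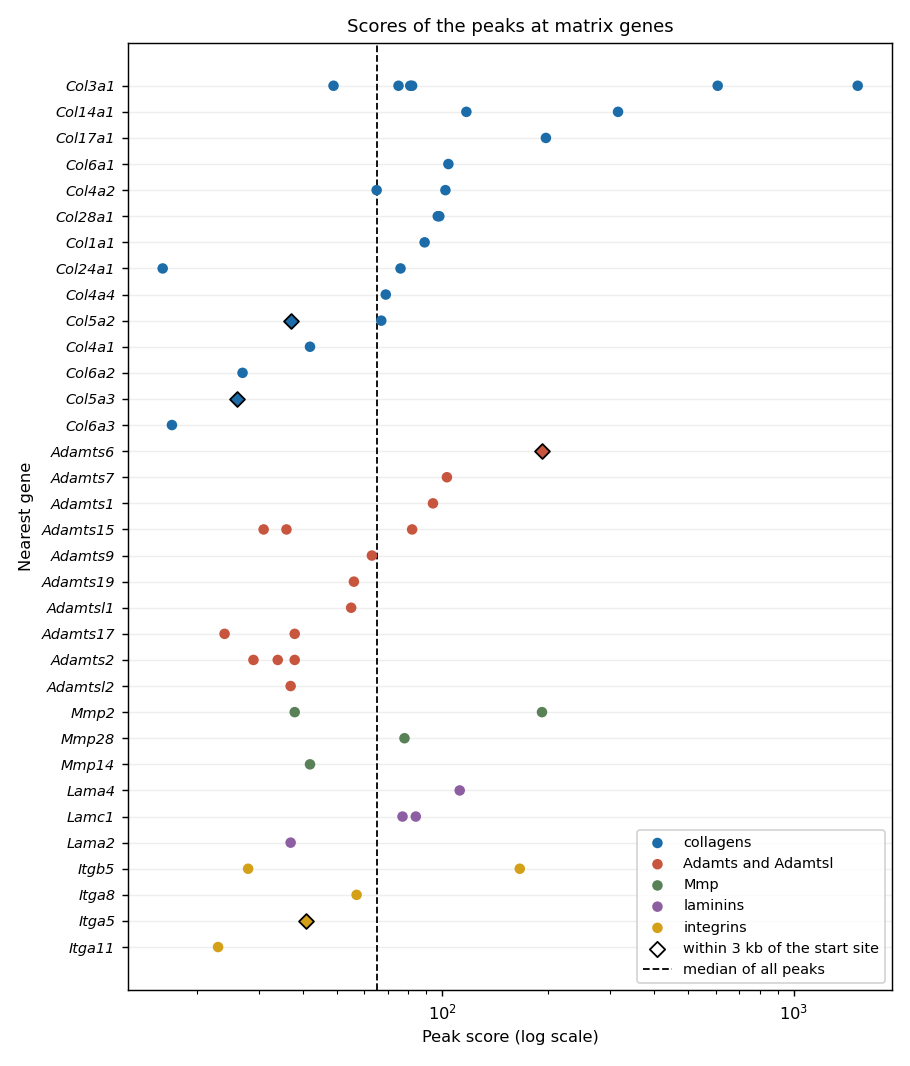
Score of 52 of the 56 peaks (log axis) by nearest gene, coloured by subfamily, with 1 point a peak. Diamonds lie within 3 kb of the start site and the dashed line is the median of all peaks, 65. The 2 highest points, 1519 and 607, both belong to Col3a1, and 11 of the 15 Adamts and Adamtsl points lie below the line.

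Sites at matrix genes were mostly away from the start of transcription. Introns held 31 of the 56 peaks (55.4%, 41.5 to 68.7), against 39.2% of the peaks at other protein-coding genes, and 22 were intergenic (39.3%, 26.5 to 53.2), against 48.2%. None was annotated as a promoter (0%, up to 6.38%), against 9.74%. A single member peak lay within 1 kb of a start site (1.79%, 0.0452 to 9.55), against 12.5%, and 29 lay 10 to 50 kb away (51.8%, 38 to 65.3), against 35.7%. By gene, 4 members had a peak within 3 kb of the start site (3.20%, 0.879 to 7.99), a share near the 2.08% of other genes. Repeats were annotated at 9 member peaks (16.1%, 7.62 to 28.3) and at 23.9% of the others.

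**Figure D4:**
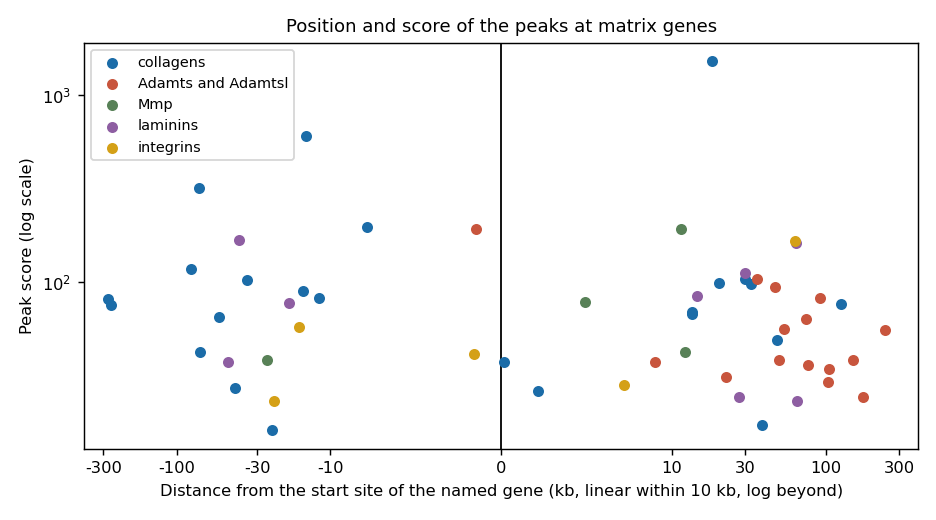
Distance of each peak midpoint from the start site of its named gene (kb, negative upstream, linear within 10 kb and log beyond) against peak score (log axis), coloured by subfamily. The Adamts and Adamtsl points lie to the right of 0 except for Adamts6 at -1.45 kb, and the interval of 1 kb around 0 holds a single point, at Col5a2.

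The 4 members with a peak within 3 kb were Adamts6, Col5a2, Col5a3 and Itga5. Adamts6, which encodes a secreted metalloproteinase, had the highest of these scores, 192, at a broad peak of 1439 bp centred -1.45 kb from the start site (chromosome 13, 104285665 to 104287103). The gene body in the RefSeq table begins at 104286518, inside this peak. Col5a2, a chain of type V collagen, the minor fibrillar collagen that sets fibril diameter, had a peak of score 37 over its first exon, centred 143 bp past the start (chromosome 1, 45502989 to 45503290). Col5a3, another type V chain, had one of score 26 in intron 1, 2.18 kb past the start (chromosome 9, 20812728 to 20813051). Itga5, the alpha chain of the main fibronectin receptor, had one of score 41 at -1.62 kb (chromosome 15, 103368186 to 103368630). Of these 4 scores, the one at Adamts6 lay above the median of all peaks and the other 3 below it.

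Promoter sequence was taken from RefSeq (build GRCm38.p6, which mm10 shares). There, 90 of the 125 members and 23 of the 35 with a peak had an entry. Adamts6 and Col5a2 had no entry. The 250 bases before the start are shown, 5′ to 3′ on the strand of the gene, for the other 2 members with a peak within 3 kb and for Col3a1, the member with the most and the highest peaks, so that a reader can see the sequence beside which, and not on which, these peaks lie. Capitals mark a forkhead word, which is TGTTTAC, or its variant TGTTTGC, or the word TGTTTAT, or else TATTTAC, on either strand. The positions are chr15:103366792-103367041 on the minus strand for Itga5, chr9:20815068-20815317 on the minus strand for Col5a3 and chr1:45311288-45311537 on the plus strand for Col3a1.
Itga5: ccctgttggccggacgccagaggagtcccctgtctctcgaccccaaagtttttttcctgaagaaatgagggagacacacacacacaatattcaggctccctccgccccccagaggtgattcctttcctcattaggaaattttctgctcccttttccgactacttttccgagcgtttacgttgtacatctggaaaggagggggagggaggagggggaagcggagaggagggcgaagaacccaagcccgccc
Col5a3: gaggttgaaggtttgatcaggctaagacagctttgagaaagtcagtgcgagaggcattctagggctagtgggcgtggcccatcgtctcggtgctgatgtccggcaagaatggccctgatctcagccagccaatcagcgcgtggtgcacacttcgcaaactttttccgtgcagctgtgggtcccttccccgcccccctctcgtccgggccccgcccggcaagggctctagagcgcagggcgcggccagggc
Col3a1: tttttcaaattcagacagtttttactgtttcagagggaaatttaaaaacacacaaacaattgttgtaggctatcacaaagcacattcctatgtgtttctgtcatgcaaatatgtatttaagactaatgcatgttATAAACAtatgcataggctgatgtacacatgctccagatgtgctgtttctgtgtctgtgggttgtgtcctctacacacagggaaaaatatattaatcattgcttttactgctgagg
The Col3a1 sequence holds TGTTTAT on the opposite strand, whose first base there is 116 bases before the start, and the other 2 hold none of the 4 words. Over the full windows of 300 bases, a word was found in 3 of 24 promoters of members with a peak (12.5%, at Col3a1, Col6a1 and Adamts17), in 11 of 99 of all members (11.1%) and in 14.9% of all 32851 promoters. A match describes letters in the window and is not a binding site, and no match says only that these letters are not in it. The sequence under the peaks themselves was not used here.

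Fibrillar collagens, which form the load-bearing fibres of connective tissue, carried the 2 highest member scores. Of 11 such genes 5 had a peak (45.5%, 16.7 to 76.6), against 8.99% of other protein-coding genes: Col3a1, Col5a2, Col5a3, Col24a1 and Col1a1. The 11 genes had a median territory of 233 kb, and the interval includes the 19% of other genes with territories over 103 kb. Col3a1, the sole chain of type III collagen, had scores of 1519, 607, 82, 81, 75 and 49. The peak of 1519 lay in intron 13 of 50, 18.1 kb past the start, on a repeat that the file names (TTTTTG)n (chromosome 1, 45329203 to 45330077), and shared the second rank among all peaks with 1 other. That of 607 lay at -14.4 kb (chromosome 1, 45296837 to 45297426), on a repeat annotated as MIR. The peak of 82 lay at -11.8 kb, 2.63 kb away from it. Those of 81 and 75 lay far upstream, at -280 and -267 kb. That of 49 lay 47.8 kb past the start, beyond the end of the gene. The peaks of 75 and 49 were annotated on L1 repeats. The Col3a1 sites are thus spread on both sides of the gene and in its body. The scores of 1519 and 607 were the only member peaks among the 100 highest of the list.

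Col5a2 stands next to Col3a1 on chromosome 1, and a second peak of it, of score 67, lay in intron 1 on a (TTTTG)n repeat 13.4 kb past the start. Between the outermost sites of this pair, 472 kb apart, lay 8 peaks, all nearest to Col3a1 or Col5a2. Col24a1, a minor fibrillar collagen, had a peak of score 76 in intron 24 and one of 16 at -24.1 kb, and a peak of 192 further along inside its body was nearest to Znhit6. Col1a1, the main chain of type I collagen, which was chosen for mention once its score was known, had an intergenic peak of score 89 at -15.1 kb, on a DNA transposon. Its partner Col1a2 had none, and neither had Col5a1, which pairs with Col5a2 in type V collagen.

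**Figure D5:**
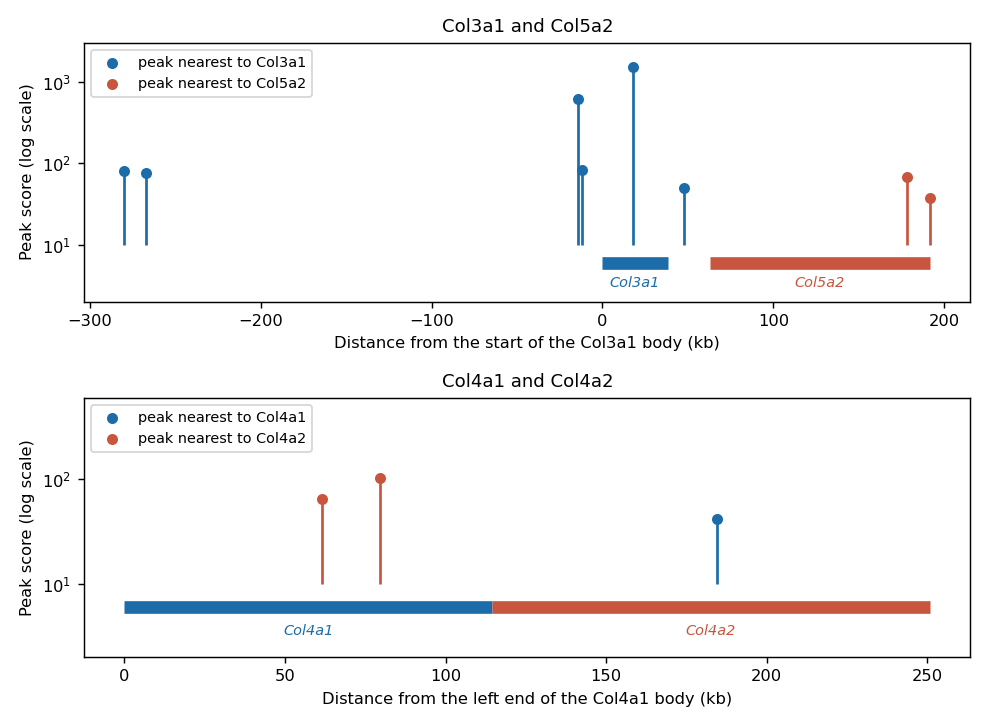
Peaks nearest to Col3a1 or Col5a2 (top) and to Col4a1 or Col4a2 (bottom), at their distance in kb from the left end of the first gene's body, with peak score on a log axis and thick bars for gene bodies. The top panel shows the scores of 1519 and 607 at Col3a1. In the bottom panel the 2 peaks nearest to Col4a2 lie over the Col4a1 body and the 1 nearest to Col4a1 lies over the Col4a2 body.

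Type IV collagen, the network of basement membranes, is encoded by gene pairs that start back to back, and the 3 peaks of the pair Col4a1 and Col4a2 were each named after the gene in which they did not lie. Col4a2 was the nearest gene of a peak of score 102 at -34.8 kb and one of 65 at -52.8 kb, both of which lay in introns of Col4a1 (introns 1 and 2). Col4a1 was the nearest gene of a peak of 42 at -70.2 kb, which lay in intron 4 of Col4a2. The RefSeq starts of the pair lie 21 bp apart, so that the nearest start is that of the other gene for any site inside either body outside these bases. The run from the Col4a2 start to the Col4a1 start is shown on the plus strand (chr8:11312805-11312826), with the first base of each transcript in capitals, to show how little separates them.
Col4a2 to Col4a1: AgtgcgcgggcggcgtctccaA
Of the other pairs, Col4a5 and Col4a6 on chromosome X had no peak and Col4a3 and Col4a4 had 1 by nearest gene, in intron 1 of Col4a4. A further peak of score 80 inside the Col4a4 body was nearest to Rhbdd1. Of 9 network-forming collagen genes 3 had a peak by nearest gene (33.3%, 7.49 to 70.1), an interval that includes the 8.99% of other genes.

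Type VI collagen forms beaded filaments around cells, and is abundant in adipose tissue. By nearest gene, 3 of its 6 genes had a peak (50.0%, 11.8 to 88.2), against 8.99% of other protein-coding genes. The 6 genes had a median territory of 141 kb, and the interval includes the 19% of other genes with territories over 103 kb. The 3 genes with a peak encode the chains of its classical form, and the 3 later chains, Col6a4, Col6a5 and Col6a6, had none. The split rests on weak peaks, since those at Col6a2 and Col6a3 scored below 30. That of Col6a3, in intron 6, scored 17, where the lowest score of the list was 13. Col6a1 had a peak of score 104 between Col6a1 and Col6a2, 29999 bp past its start, on a (CAAA)n repeat (chromosome 10, 76695854 to 76696237). The peak nearest to Col6a2, of score 27 at -41.6 kb, also lay between the genes, and both lay within 31.2 kb. With simple repeats left out Col6a1 has no peak.

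Among the remaining collagens, Col14a1, Col17a1 and Col28a1 had peaks. Col14a1, a collagen that sits on the surface of other fibrils, had peaks of score 316 and 117 at -71.6 and -80.7 kb, both in the last intron of Deptor, an inhibitor of mTOR, which is the neighbouring gene. They were 9.05 kb apart. Of 9 collagens of this fibril-associated class 1, Col14a1, had a peak by nearest gene (11.1%, 0.281 to 48.2). That share is near the 8.99% of other protein-coding genes. A peak of score 39 nearest to Gm10635 lay inside Col12a1, of the same class. Col17a1, a transmembrane collagen of epithelial anchoring junctions, had a peak of 197 at -7.88 kb on an LTR element. Col28a1 had 2 intronic peaks of almost equal score, 98 in intron 3 and 97 in intron 8, 12.3 kb apart.

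Adamts genes had many sites of modest score, nearly all past the start. Of their 15 peaks with those of Adamtsl genes, 14 lay downstream of the start site, 10 of them inside the gene, against 52.1% downstream for peaks at other protein-coding genes and 11 of 24 for collagens. The 15 peaks came from 10 genes. The median body of the 23 Adamts and Adamtsl genes was 114 kb, against 17.1 kb for other genes, and position was not matched for this. Only 4 of the 15 peaks reached the median score of all peaks. Adamts2, the main enzyme that removes the amino-terminal propeptide of fibrillar procollagens, had 3 intronic peaks with scores of 38, 34 and 29, at 49.7, 105 and 103 kb past the start. Adamts15, which cuts the proteoglycans versican and aggrecan, had 3 peaks beyond its far end, with scores of 82, 36 and 31 at 91.5, 76.9 and 22.5 kb. Adamts17 had 2, of 38 and 24, in introns 8 and 10.

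The higher scores in this group lay at Adamts6, described above, at Adamts7, an enzyme that cuts cartilage oligomeric matrix protein, with 103 in its last intron 35.7 kb past the start, and at Adamts1, which cuts versican and aggrecan, with 94 at 46.8 kb. Adamts9, another versican-cutting enzyme, had a peak of 63 in intron 18. Adamts19, Adamtsl1 and Adamtsl2 each had 1 intronic peak. A peak of score 121 inside the Adamts16 body, on chromosome 13, was nearest to Ice1.

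By nearest gene, the metalloproteinase genes with a site were Mmp2, Mmp14 and Mmp28, of 23. Mmp2, gelatinase A, had a peak of score 192 in intron 7, 11.4 kb past the start (chromosome 8, 92838479 to 92838962), and one of 38 at -25.8 kb. Mmp14, the membrane-bound enzyme that activates the Mmp2 proenzyme, had one of 42 past its end, 12.2 kb from the start. Mmp28, epilysin, had one of 78 in intron 1. The cluster of 10 Mmp genes on chromosome 9 spans 427 kb and held no peak. It includes the collagenase genes Mmp13, Mmp1a and Mmp8 and the stromelysin genes Mmp3 and Mmp10. Territories of the 10 genes ran from 29.5 kb (Mmp1a) to 69.9 kb (Mmp20). Other protein-coding genes had a peak in 4.82% of cases for territories of 19.7 to 42.5 kb. For territories of 42.5 to 103 kb the share was 8.92%. With shares this low, an absence of peaks at 10 genes does not set the cluster apart.

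Laminins are trimers of an alpha, a beta and a gamma chain. None of the 3 beta genes had a peak (0%, up to 70.8%), an interval that includes the 8.99% of other protein-coding genes. Lama4, the alpha chain of laminins in the basement membranes of adipocytes and vessels, had a peak of score 112 in intron 1, 29.6 kb past the start. Lama2 had one of 37 at -46.5 kb, and a peak of 199 inside its body was nearest to the gene 4930579H20Rik. Lamc1, the gamma chain of most laminins, had one of 84 in intron 1 and one of 77 at -18.5 kb.

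In the integrin group 4 of 24 genes had a peak (16.7%, 4.74 to 37.4), an interval that includes the 8.99% of other genes. Itgb5, which pairs with the alpha v chain in a vitronectin receptor, had a peak of score 166 in intron 5, 62.8 kb past the start (chromosome 16, 33892152 to 33892775), and one of 28 in intron 1. The other 3 integrin genes had a single peak below the median score each, all upstream and outside the gene. These were Itga8 with 57 at -16.0 kb, Itga5 with 41 and Itga11, the alpha chain of a collagen receptor of fibroblasts, with 23 at -23.3 kb. Itga1, Itga2 and Itga10, the other alpha chains of collagen receptors, had none, and neither had Itgb1, their shared beta chain.

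By nearest start, 6 of the 56 member peaks lay inside the body of another protein-coding gene, 27 inside the named gene and 23 in neither. In turn 8 peaks inside member bodies were nearest to a gene that is not a member. They gave a site to 4 members without one by nearest gene: Adamts16, Col12a1, Col15a1 and Col27a1. The strongest of these 4 sites, of score 175, lay in Col15a1 and was nearest to Tgfbr1, a TGF-beta receptor. These assignments follow distance alone, and which gene a site acts on was not measured.

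Other matrix genes, in 6 lists that the rule did not use, had shares of 16.7% to 42.9% by nearest gene, beside the 8.99% of other protein-coding genes given above, which here include these lists. Except for the list of 7 receptors (9.90 to 81.6), the intervals of the lists include 8.99%. The lists were not matched for territory and were chosen with earlier results of these data known. Among 42 matrix glycoproteins 7 had a peak (16.7%, 6.97 to 31.4), the highest at Efemp1 (386), Ltbp1 (257), which stores latent TGF-beta in the matrix, and Fbln1 (123). Among 28 proteoglycans 6 had one (21.4%, 8.30 to 41.0), led by Gpc6 (463), Vcan (146) and Dcn (124). The Gpc6 peak of 463 lay far away, at -335 kb, on a (TTG)n repeat, and the other Gpc6 peak lay at 205 kb. The Vcan peak of 146 lay at -85.8 kb. The Dcn peak, at the gene of a small proteoglycan that binds collagen fibrils, lay 40 bp past the start.

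Among 22 genes of collagen processing and cross-linking 5 had a peak (22.7%, 7.82 to 45.4), with Lox, the enzyme that starts cross-links, at 138, Loxl4 at 97 and Plod2, a lysyl hydroxylase, at 58. Among 19 protease inhibitors and other proteases 4 had one (21.1%, 6.05 to 45.6), led by Adam12 (313), Adam17 (50) and Serpine2 (49). Among 18 integrin adaptors 3 had one (16.7%, 3.58 to 41.4), namely Fermt2 (90), Tln2 (40) and Zyx (23). Among 7 receptors for collagen and basement membrane other than integrins 3 had one (42.9%, 9.90 to 81.6), and each had one within 3 kb of the start. Ddr2, a collagen-activated kinase, had a score of 109 at 7.12 kb and one of 79 at 1.15 kb. Cd47 had 108 and Mrc2, which takes up collagen, 61, both within 3 kb. Over the 6 lists 9 genes had a peak within 3 kb, of 136 listed (6.62%), beside the 2.08% of other protein-coding genes with one.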

How the data were processed

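The data were peaks of 1 Foxp4 ChIP library. The input library was not analysed here. Per the file headers, the authors annotated a narrowPeak file with HOMER's annotatePeaks.pl on mm10, and the whole-number score of each peak is as deposited. Distances, nearest genes, annotation classes and repeats are also the authors'. The submitters' processing notes list, with no roles, MACS2, Bowtie2, SAMtools, Picard and deepTools 3.3.0. Read depth, and how the input and reads with several alignments were treated, are not given in the sources used here, and the last could change which repeats appear as peaks.

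No peak of the 3317 was filtered, and 1 line that held none was dropped. Genes came from a RefSeq table of GRCm38.p6, leaving out the mitochondrial chromosome, and peaks were joined to them by gene number, or by symbol where that failed. Counts, shares, exact 95% binomial intervals and territories were computed with Python 3.11.15, pandas 2.3.3 and scipy 1.17.1. No test was run: genes and peaks of 1 library are not replicates.

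The members and lists were chosen with earlier results of these data known. Named are members with a peak within 3 kb or with 2 or more peaks, the up to 5 per subfamily with the highest score, and the up to 3 per other list. Some results are left out of the text and of the plots by gene. The promoters shown were chosen after the peaks were seen, since Adamts6 and Col5a2, which had been planned, had no entry. Alternatives covered score limits, windows of 1, 5 and 10 kb, a distance limit of 100 kb, gene bodies with and without 20 kb around them, simple repeats and the integrin-binding proteins.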

Additional observations from a re-analysis of the deposited data

How the results depend on the processing

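The share of members with a peak stayed above that of other protein-coding genes under each of the 6 alternatives for peaks and assignment, at 16% to 30.4% against 5.08% to 11%. With peaks below the median score left out, 20 members had a peak, among them 4 Adamts and Adamtsl genes and 1 integrin gene, and 1 member had one within 3 kb of its start. A window of 1 kb also gave 1 member, and one of 10 kb gave 8. By overlap of a peak with the gene body, 1 integrin gene had one. The percent of other genes with a peak was 7.97 with a score limit of 30, 5.08 at or above the median score, 8.39 without simple repeats, 7.82 within 100 kb, 11 with bodies and 20 kb, and 5.62 by overlap with the body. The other 47 of 60 recomputed values stayed within 1.5 times the count or inside the interval of the value reported. The median score of member peaks ranged from 63 to 76. Read depth is unknown, and the number of members per subfamily limits the precision of the shares.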
